A study of Mus musculus with 26 samples.

Results

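Sphingosine-1-phosphate (S1P) handling was described here through 10 genes, Mfsd2b, Sphk1, Sphk2, Spns2, Sgpl1, Sgpp1, S1pr1, S1pr2, S1pr3 and S1pr4, of 19938 genes measured. All 10 were measured, each by 1 probe set, so no choice between probe sets was needed, and no filter on low values was applied. The set was put together with results of these arrays known. Mfsd2b was chosen by its measured signal, higher in reporter-positive than in reporter-negative PreGM cells, so its values in comparisons with PreGM arrays are given as a description without a test. The other 9 were named for their place in the pathway.

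The 26 Affymetrix Mouse Gene 1.1 ST arrays measured total RNA of bone marrow cells from mice of 8 to 15 weeks that carry the Gata1-EGFP reporter as Gata1-EGFP Tg/+, a genotype shared by every group. EGFP marks cells in which the reporter is on, and Gata1 encodes a transcription factor that red cells, megakaryocytes, mast cells and eosinophils need. The pre-megakaryocyte-erythroid progenitors (PreMegE, 3 arrays) were sorted as Lin-, cKit+, Sca1-, CD41-, FcgRII/III-, CD150+ and CD105- cells, with no EGFP gate named. The granulocyte-macrophage progenitors (GMP) were the FcgRII/III+ fraction of the Lin-, cKit+, Sca1-, CD41- cells, taken with the reporter on (GMP GFP+, 3 arrays) or off (GMP GFP-, 4 arrays). The pre-granulocyte-macrophage progenitors (PreGM) lacked FcgRII/III, CD150 and CD105 and were likewise taken as PreGM GFP+ (3 arrays) and PreGM GFP- (3 arrays). Common lymphoid progenitors (CLP, 3 arrays) were Lin-, B220-, Sca1 low, cKit low, Flt3+ and IL-7Ra+. Lymphoid-primed multipotent progenitors (LMPP, 4 arrays) were Lin-, cKit+, Sca1+, CD150-, Flt3 high and EGFP-, and haematopoietic stem cells (HSC GFP-, 3 arrays) Lin-, cKit+, Sca1+, CD150+, Flt3- and EGFP-. Reporter-positive stem cells, which the series' own text mentions, were not analysed here. Whether the arrays of a group stand for separate mice is not stated, so a p-value covers only how these samples vary, and that variation may be technical.

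S1P is a signalling lipid made inside cells when the sphingosine kinases Sphk1 and Sphk2 phosphorylate sphingosine. It is broken down irreversibly by the lyase Sgpl1, returned to sphingosine by phosphatases such as Sgpp1, and carried out of the cell by transporters. In mice Mfsd2b exports S1P from red blood cells and platelets, which feed the blood pool, and Spns2 exports it from endothelial cells. Outside the cell S1P acts on G protein-coupled receptors, of which S1pr1 draws lymphocytes and other blood cells from tissues into blood and lymph.

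The stretch just before a RefSeq transcription start is shown for both exporter genes, Mfsd2b and Spns2, and for the receptor gene S1pr3. S1pr3 was lower in both reporter-positive progenitors. Each line holds the 250 bases before a RefSeq start (build GRCm38.p6), 5′ to 3′ on the strand of the gene. Capitals mark matches on either strand to the GATA word AGATAA, also with T as its first letter or G as its last, or to the CACCC-box word CCNCNCCC.
Mfsd2b (chr12:4874360-4874609, minus strand): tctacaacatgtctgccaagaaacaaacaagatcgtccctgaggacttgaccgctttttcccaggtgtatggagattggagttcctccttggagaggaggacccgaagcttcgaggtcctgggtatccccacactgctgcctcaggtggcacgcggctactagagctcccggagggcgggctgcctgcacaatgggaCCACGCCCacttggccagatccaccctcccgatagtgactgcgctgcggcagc
Spns2 (chr11:72475028-72475277, minus strand): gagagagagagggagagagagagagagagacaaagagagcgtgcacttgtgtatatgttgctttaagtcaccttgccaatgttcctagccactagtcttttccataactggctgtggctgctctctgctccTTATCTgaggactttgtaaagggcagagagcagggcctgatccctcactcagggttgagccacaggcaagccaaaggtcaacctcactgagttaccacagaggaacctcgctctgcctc
S1pr3 (chr13:51408368-51408617, plus strand): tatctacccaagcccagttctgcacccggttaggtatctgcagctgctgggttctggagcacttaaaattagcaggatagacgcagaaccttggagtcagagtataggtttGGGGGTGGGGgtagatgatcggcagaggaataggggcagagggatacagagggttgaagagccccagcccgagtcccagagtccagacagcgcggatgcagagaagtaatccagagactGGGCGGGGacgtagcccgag
The Spns2 window lies inside the annotated gene (chr11:72451638-72489976), so it precedes an internal start, not the outermost one. It holds 1 GATA word, on the opposite strand, whose first letter lies 119 bases before that start, and no CACCC-box word. The Mfsd2b window holds no GATA word and 1 CACCC-box word, 53 bases before the start, and the S1pr3 window holds 3 CACCC-box words on the opposite strand, 2 of them overlapping. Of all 32851 windows of this length in the table, 26.5% held a GATA word and 45.9% a CACCC-box word. RefSeq windows were at hand for 9 of the 10 genes (14 windows, S1pr1 not among them), and 3 of the 14 held a GATA word, 1 of Spns2 and 2 of Sphk1. The 2 Sphk1 windows, from 116532194 and 116532201, overlap, and their GATA word is the same site counted again. A CACCC-box word was held by 11 of the 14, among them overlapping Sphk1 windows that share sites. These matches are letters in a window, not measured binding.

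All levels below are log2 signals, in which a difference of 1 is a doubling. The median of all values on the arrays was 6.61, and a signal under 6.61 was not shown to exceed background, so no fold is taken from a mean below it. Signals of different genes come from different probes and are not compared with each other. Differences were tested with limma over all 26 arrays and 19938 genes, and a gene was called at a Benjamini-Hochberg adjusted p under 0.05. Gata1 itself followed the labels: its lowest arrays were 8.10 in PreMegE, 7.92 in GMP GFP+ and 8.01 in PreGM GFP+, and its highest array in any reporter-negative group or CLP was 7.14. Erythroid marker genes (8 of 10 measured) had a mean signal of 8.48 in PreMegE, 7.85 in GMP GFP+ and 8.54 in PreGM GFP+, against 6.39 to 6.52 in the other 5 groups. Endothelial and stromal markers (8 genes) averaged 6.15 to 6.79 in all groups, and those of them that varied are given beside S1pr1.

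Mfsd2b was high in PreMegE and PreGM GFP+, intermediate in GMP GFP+, and had means of 6.64 to 6.99 in the other 5 groups. Its signal was 9.84, 10.60 and 10.39 in the 3 PreMegE arrays and 10.08, 10.37 and 10.31 in PreGM GFP+. In GMP GFP+ it was 7.73, 7.52 and 7.91. It lay between 6.65 and 6.85 in the 4 GMP GFP- arrays, at 6.49, 6.80 and 6.63 in PreGM GFP-, and between 6.72 and 7.13 in the 10 arrays of CLP, LMPP and HSC GFP-. The 9 arrays of PreMegE, PreGM GFP+ and GMP GFP+ thus all stood above the other 17, in 2 separate tiers. In order of their means the groups ran PreMegE, PreGM GFP+, GMP GFP+, HSC GFP-, CLP, LMPP, GMP GFP- and PreGM GFP-. The first neighbours in this order, PreMegE and PreGM GFP+, overlapped (difference of means 0.03), PreGM GFP+ lay 2.53 above GMP GFP+ and GMP GFP+ 0.73 above HSC GFP-, both without overlap, and no neighbours below that were apart.

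The difference that chose Mfsd2b, PreGM GFP+ minus PreGM GFP-, was 3.61, or 12.2 times the signal. No interval is given, because this difference chose the gene. The PreGM GFP- mean, 6.64, lay close to the array median, with 1 array (6.49) below it, so the fold is uncertain. In arrays that this choice did not use, Mfsd2b rose by 0.98 (SE 0.14, adjusted p = 7.96e-05, limma) to 7.72 ± 0.20 in GMP GFP+ (SD, n = 3), against 6.74 ± 0.09 in GMP GFP- (SD, n = 4). It rose by 3.29 (SE 0.15, adjusted p = 4.60e-12, limma), or 9.76 times, to 10.28 ± 0.39 in PreMegE (SD, n = 3), against 6.99 ± 0.16 in HSC GFP- (SD, n = 3). Both calls held under every alternative analysis run (15 and 14 settings). It was 0.19 lower in LMPP than in HSC GFP- and 0.01 higher in CLP than in LMPP, with adjusted p of 0.686 and 0.994 (limma). The reporter difference in GMP minus that in PreGM was -2.64 (not tested, because PreGM arrays enter it). In bulk samples a sorted group with fewer expressing cells and one with less RNA per cell cannot be told apart. Beside the GMP values, the mast cell and basophil markers (6 genes) averaged 11.01 in GMP GFP+, 6.99 in GMP GFP- and 8.15 in PreGM GFP+, and eosinophil markers (5 genes) 9.21, 6.09 and 6.24. Megakaryocyte markers (6 of 8 measured) averaged 8.35 in PreMegE, 7.92 in PreGM GFP+, 7.03 in GMP GFP+ and 6.55 in GMP GFP-. They averaged 7.51 in HSC GFP- and 6.65 to 6.81 in the remaining groups. The part of any of these cell types in the lower Mfsd2b signal of GMP GFP+ was not tested.

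**Figure D1:**
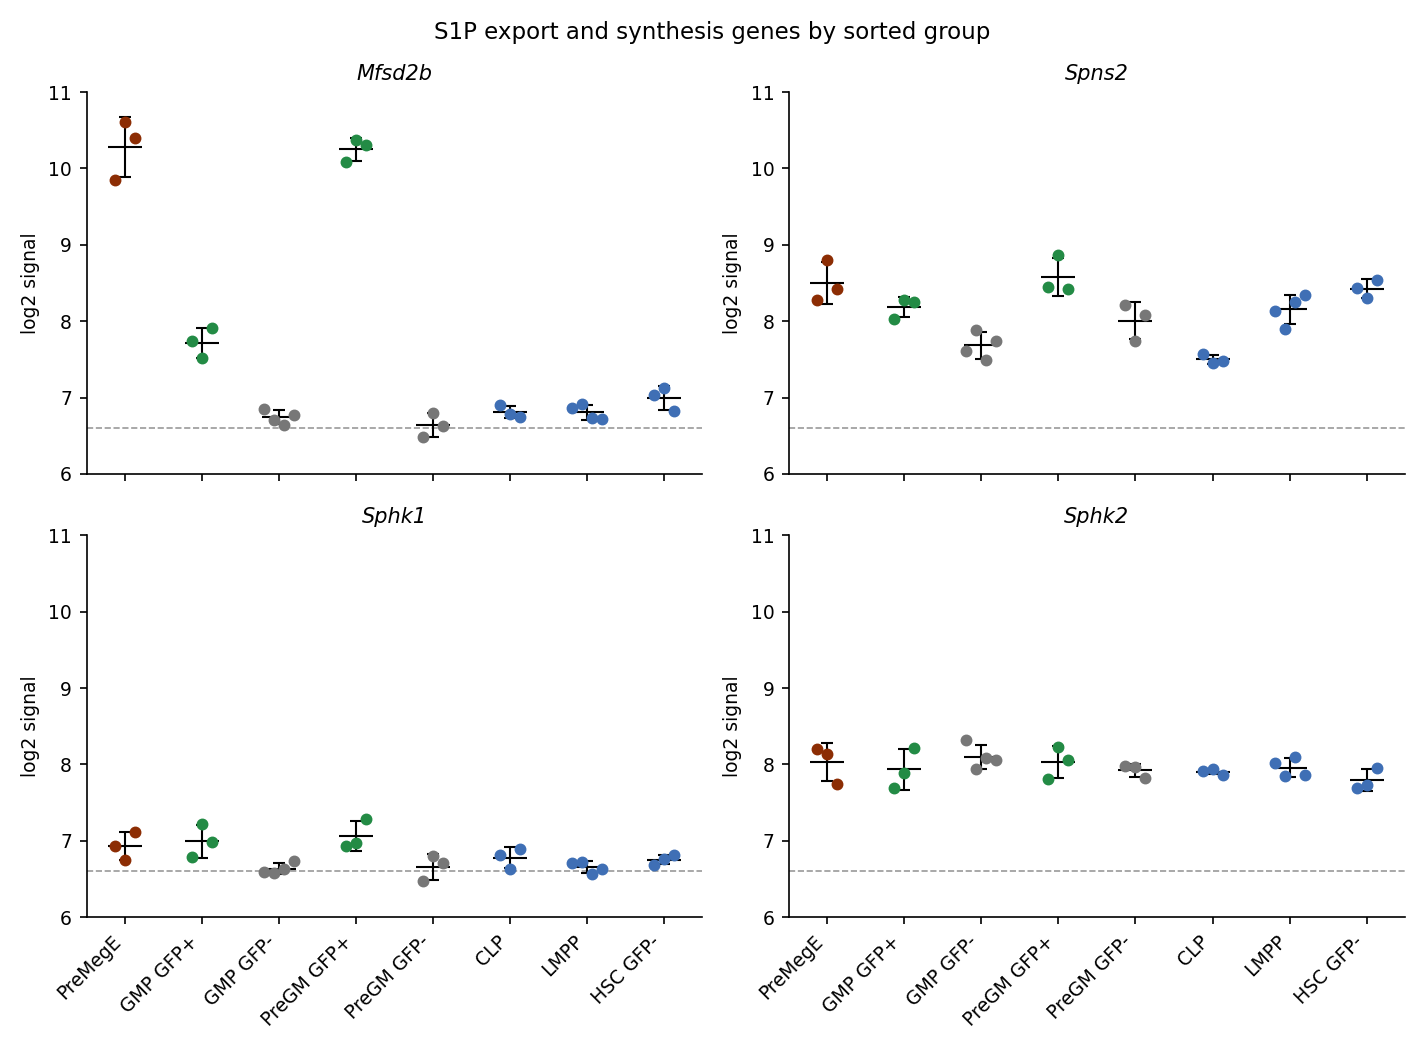
Log2 signal of Mfsd2b, Spns2, Sphk1 and Sphk2 in each array (points), with group mean and SD (black bars), for the 8 sorted groups; green marks reporter-positive and grey reporter-negative PreGM and GMP, brown PreMegE, blue CLP, LMPP and HSC GFP-. The dashed line is the median of all values, 6.61. Mfsd2b stands near 10.3 in PreMegE and PreGM GFP+ and at 7.72 in GMP GFP+, while the Sphk2 panel is nearly level.

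Spns2, the other exporter gene, had a higher mean in the reporter-positive cells of both pairs. The steps were smaller than those of Mfsd2b, on top of a signal that every group carried. It was 8.45, 8.87 and 8.42 in PreGM GFP+, against 8.21, 7.74 and 8.08 in PreGM GFP-. It was 8.03, 8.27 and 8.25 in GMP GFP+, against 7.61, 7.89, 7.49 and 7.74 in GMP GFP-. In both pairs each reporter-positive array lay above each reporter-negative one. The rise in GMP, 0.50 (SE 0.15), passed the test (adjusted p = 0.0391, limma), while the difference in PreGM, 0.57 (SE 0.16), did not (adjusted p = 0.0651). The reporter differences of the pair of progenitors differed by -0.07 (interval -0.51 to 0.38, adjusted p = 0.976), so a larger Spns2 response in either was not detected. The GMP call was lost when each array was centred on its median (0.38, adjusted p = 0.173), with a trended, robust prior (adjusted p = 0.0699), and without any one of GMP GFP+ replicate 2 or 3 or GMP GFP- replicate 1, 3 or 4 (adjusted p between 0.0537 and 0.141). The PreGM difference was called after quantile normalization (0.58, adjusted p = 0.0225).

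Outside the reporter pairs Spns2 was lowest in CLP. It was 7.57, 7.46 and 7.48 in CLP, against 8.13, 7.90, 8.24 and 8.35 in LMPP, with no overlap. It fell by 0.65 (SE 0.15, adjusted p = 0.0195, limma), and it was the 1 member of 10 that changed in this comparison (0 higher, 1 lower, where 0.828% of all genes were called higher and 0.747% lower). The call was lost without any one CLP array or LMPP replicate 3 or 4 (adjusted p between 0.0519 and 0.0991), in a fit of only these groups (0.0647) and with the replicate number as a block (0.0646). In PreMegE Spns2 averaged 8.50 ± 0.27 and in HSC GFP- 8.43 ± 0.12 (SD, n = 3 each), a difference of 0.07 (interval -0.25 to 0.40), where Mfsd2b differed by 3.29. In order of means the groups ran PreGM GFP+, PreMegE, HSC GFP-, GMP GFP+, LMPP, PreGM GFP-, GMP GFP- and CLP, and of neighbours in this order HSC GFP- and GMP GFP+ alone did not overlap (0.24).

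The kinase genes varied least. Group means of Sphk2 spanned 0.30, from 7.79 in HSC GFP- up to 8.10 in GMP GFP-, and no neighbouring groups were apart. Sphk1 lay close to the array median, with group means between 6.63 and 7.06. It was 6.93, 6.97 and 7.29 in PreGM GFP+, against 6.47, 6.80 and 6.71 in PreGM GFP-, and 6.78, 7.21 and 6.99 in GMP GFP+, against 6.58 to 6.73 in GMP GFP-. The reporter-positive arrays were higher without overlap in both pairs, but the differences of 0.41 and 0.36 did not pass the test (adjusted p = 0.123 and 0.0636, limma). The GMP difference was called with array weights (adjusted p = 0.0308) and without GMP GFP+ replicate 1 (0.47, adjusted p = 0.0344).

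Of the breakdown genes, the lyase Sgpl1 was lowest where Mfsd2b was highest. Its signal was 6.58, 7.15 and 6.90 in PreMegE and 6.87, 6.38 and 7.04 in PreGM GFP+. All 6 values lay below those of every other group, which ran from 7.24 to 8.69. It fell by 1.06 in PreGM GFP+ (SE 0.26, adjusted p = 0.0305, limma), against PreGM GFP- at 7.95, 7.24 and 8.28, a signal 2.08 times lower. The PreGM GFP+ mean, 6.765, lay close to the array median, with 1 array (6.38) below it, so this fold is uncertain. The call was lost without PreGM GFP- replicate 1 or 3 or PreGM GFP+ replicate 1 or 2 (differences of -0.83 to -1.11, adjusted p between 0.0716 and 0.182), in a fit of only these groups (adjusted p = 0.183) and with array weights (0.167). In GMP the difference was -0.34 (interval -0.84 to 0.17, adjusted p = 0.416), with values of 7.72, 7.35 and 7.60 in GMP GFP+, inside the range of 7.44 to 8.14 in GMP GFP- but for 1 array below it. The reporter differences of GMP and PreGM differed by 0.72 (interval -0.02 to 1.46, adjusted p = 0.684), so the 2 progenitors were not shown to differ. Sgpl1 was 0.70 lower in PreMegE than in HSC GFP- and 0.64 higher in LMPP than in HSC GFP-, both without overlap and neither past the test (adjusted p = 0.19 and 0.249). Its highest mean was 8.21 ± 0.42 in LMPP (SD, n = 4), followed by CLP at 8.09, GMP GFP- at 7.89, PreGM GFP- at 7.82, HSC GFP- at 7.58 and GMP GFP+ at 7.56, with no neighbours apart down to the gap of 0.68 above PreMegE.

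The phosphatase gene Sgpp1 stood out in a different group. It was 8.46, 8.72, 9.0 and 8.87 in GMP GFP-, while the means of the other 7 groups ran from 7.25 to 7.77 and, of their arrays, 1 of PreMegE (8.48) reached into this range. In GMP GFP+ it was 7.01, 7.66 and 7.09, a fall of 1.51 (SE 0.26, adjusted p = 5.67e-04, limma), or 2.84 times, that held under all 15 alternatives. Against PreGM GFP- (8.04, 7.21 and 7.80) it rose by 1.08 in GMP GFP- (SE 0.26, adjusted p = 0.0349, limma). That rise was the 1 member of 9 tested that changed between these reporter-negative groups (1 higher, 0 lower, against 0.918% and 0.471% of all genes), and it was lost under 10 of 15 alternatives. These were median centring, quantile normalization, the replicate block, a fit of only these groups, array weights, and leaving out GMP GFP- replicate 2, 3 or 4 or PreGM GFP- replicate 2 or 3, with differences of 0.84 to 1.14 and adjusted p between 0.0518 and 0.289. In PreGM the reporter difference was -0.22 (interval -0.79 to 0.35). The difference between the reporter differences, -1.28 (SE 0.38), had an adjusted p of 0.187 and was not called. The PreMegE arrays were spread for this gene, at 7.13, 7.72 and 8.48. Below GMP GFP- the means ran PreMegE, PreGM GFP-, CLP, LMPP, HSC GFP-, PreGM GFP+ and GMP GFP+, with overlap between all neighbours.

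**Figure D2:**
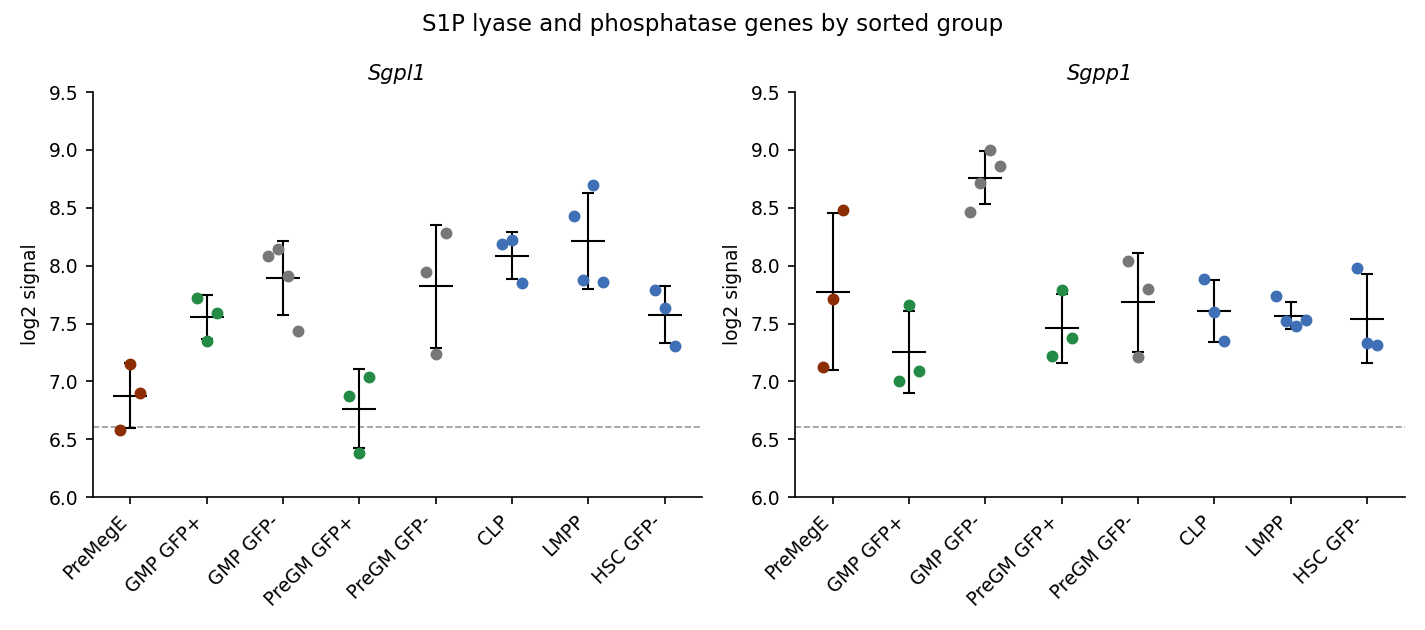
Log2 signal of the S1P lyase gene Sgpl1 and the phosphatase gene Sgpp1 in each array (points), with group mean and SD (black bars), for the 8 sorted groups; colours and the dashed median line are as in the plot of the exporter and kinase genes. Sgpl1 is lowest in PreMegE and PreGM GFP+, and the 4 GMP GFP- arrays of Sgpp1 lie between 8.46 and 9.0.

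Among the receptor genes, S1pr1 was raised in both reporter-positive progenitors. It was 8.70, 8.87 and 8.51 in PreGM GFP+, against 7.36, 7.04 and 6.85 in PreGM GFP-. It was 8.04, 7.93 and 7.83 in GMP GFP+, against 6.60, 6.43, 6.32 and 6.61 in GMP GFP-. No reporter-positive array overlapped its reporter-negative counterparts. The rise was 1.61 in PreGM (SE 0.27, adjusted p = 8.69e-04, limma), or 3.05 times, and 1.44 in GMP (SE 0.25, adjusted p = 7.02e-04, limma), where the mean of GMP GFP- lay below the array median and no fold is given. Both calls held under all alternatives (14 and 15), and the rises differed by -0.17 (interval -0.93 to 0.60, adjusted p = 0.961).

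Elsewhere S1pr1 was intermediate in stem cells, at 7.34, 8.03 and 7.80 in HSC GFP-, and lower in LMPP, at 6.97, 6.76, 7.05 and 6.93. These groups did not overlap, but the difference of -0.80 (SE 0.25) did not pass the test (adjusted p = 0.125, limma) except with array weights (-0.88, adjusted p = 0.0212). PreMegE had 8.82, 8.59 and 7.75, and its difference from HSC GFP- was 0.67 (adjusted p = 0.25). It overlapped PreGM GFP+ (difference -0.31), and without PreMegE replicate 3 that difference was 0.01. In CLP 1 array, at 7.78, stood apart from the others at 6.68 and 6.45, and the same array had the lowest S1pr3 of the group, 6.81. In order of S1pr1 means the groups ran PreGM GFP+, PreMegE, GMP GFP+, HSC GFP-, PreGM GFP-, CLP, LMPP and GMP GFP-, and the neighbours LMPP and GMP GFP- alone did not overlap (0.44). Markers of lymphoid cells (7 of 8 measured) averaged between 8.62 and 9.35 in the CLP arrays and up to 6.99 in any other group. S1pr1 is also a gene of endothelial cells. The endothelial and stromal list averaged 6.49 in PreMegE, 6.31 in GMP GFP+, 6.36 in PreGM GFP+ and 6.79 in HSC GFP-. The remaining groups ran from 6.15 to 6.46, with GMP GFP- at 6.15 and PreGM GFP- at 6.32. For this list the GMP GFP+ arrays (6.23 to 6.43) all lay above the GMP GFP- arrays (6.11 to 6.21), while the PreGM pair overlapped. Within that list, and named after its values were seen, Tek averaged 6.87 in PreMegE, 5.88 in GMP GFP+, 6.59 in PreGM GFP+ and 7.36 in HSC GFP-. It averaged 5.27 to 5.68 in the remaining groups. The groups highest for S1pr1 were also highest for Tek, but in another order. Tek was highest in HSC GFP-, and its GMP GFP+ mean lay below the array median. Cdh5, Cldn5, Col1a1 and Col3a1 averaged 6.36, 6.65, 7.39 and 6.50 in PreGM GFP+, against 6.53, 6.69, 7.35 and 6.50 in PreGM GFP-. In GMP GFP+ they averaged 6.47, 6.79, 7.41 and 6.57, against 6.41, 6.63, 7.31 and 6.48 in GMP GFP-. Emcn averaged 7.60 in HSC GFP- and 7.33 in LMPP and at most 5.99 elsewhere, while Kdr and Cxcl12 were under the array median in every group. The part of such cells in the S1pr1 differences was not tested.

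S1pr3, a receptor best known from heart and vessels, ran the opposite way. It was 5.53, 6.20 and 5.84 in PreGM GFP+, against 7.53, 8.15 and 7.79 in PreGM GFP-. It was 5.86, 5.76 and 6.55 in GMP GFP+, against 8.21, 7.65, 6.69 and 7.91 in GMP GFP-. The reporter-positive arrays lay below 6.61 and below every reporter-negative array of the same progenitor. It fell by 1.97 in PreGM GFP+ (SE 0.34, adjusted p = 0.00126, limma) and fell by 1.56 in GMP GFP+ (SE 0.32, adjusted p = 0.00326, limma), under all alternatives (14 and 15). Both falls end in signals not shown to exceed background. The falls differed by 0.41 (interval -0.56 to 1.38, adjusted p = 0.901), and by 0.10 to 0.61 over the alternatives, the least without GMP GFP- replicate 3.

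In PreMegE S1pr3 was likewise below the median, at 6.01, 5.67 and 6.12, and so was HSC GFP-, at 6.48, 6.14 and 6.12. LMPP was spread, at 7.35, 6.55, 7.11 and 6.15, and CLP had 7.75, 7.55 and 6.81. By their means the groups ran PreGM GFP-, GMP GFP-, CLP, LMPP, HSC GFP-, GMP GFP+, PreMegE and PreGM GFP+, with overlap between all neighbours. PreGM GFP- was 1.03 above LMPP without overlap, a difference that did not pass the test (SE 0.32, adjusted p = 0.183, limma). Monocyte and macrophage markers (5 genes) moved with S1pr3: they averaged 6.56 in GMP GFP+ and 9.16 in GMP GFP-, 6.25 in PreGM GFP+ and 9.25 in PreGM GFP-, 6.35 in PreMegE, 9.66 in CLP, 7.27 in LMPP and 6.41 in HSC GFP-. Their part in the S1pr3 differences was not tested.

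S1pr2, a receptor that mostly restrains migration, and S1pr4, a receptor of blood cells, passed the test in none of the 10 comparisons. Group means spanned 0.51 for S1pr2 and 0.46 for S1pr4. The widest reporter difference of these was S1pr2 in GMP, 0.33 (interval 0.00 to 0.66, adjusted p = 0.225, limma), with 7.74, 7.43 and 8.16 in GMP GFP+ and 7.28 to 7.68 in GMP GFP-. Without GMP GFP+ replicate 3 it was 0.14, below the S1pr2 difference in PreGM (0.24), so this order rests on 1 array. S1pr4 was 0.35 higher in PreMegE than in HSC GFP- (interval -0.02 to 0.72, adjusted p = 0.436). S1pr5, the remaining receptor gene and no member of the 10, stayed between 6.48 and 6.87 in all groups and was called in no comparison.

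**Figure D3:**
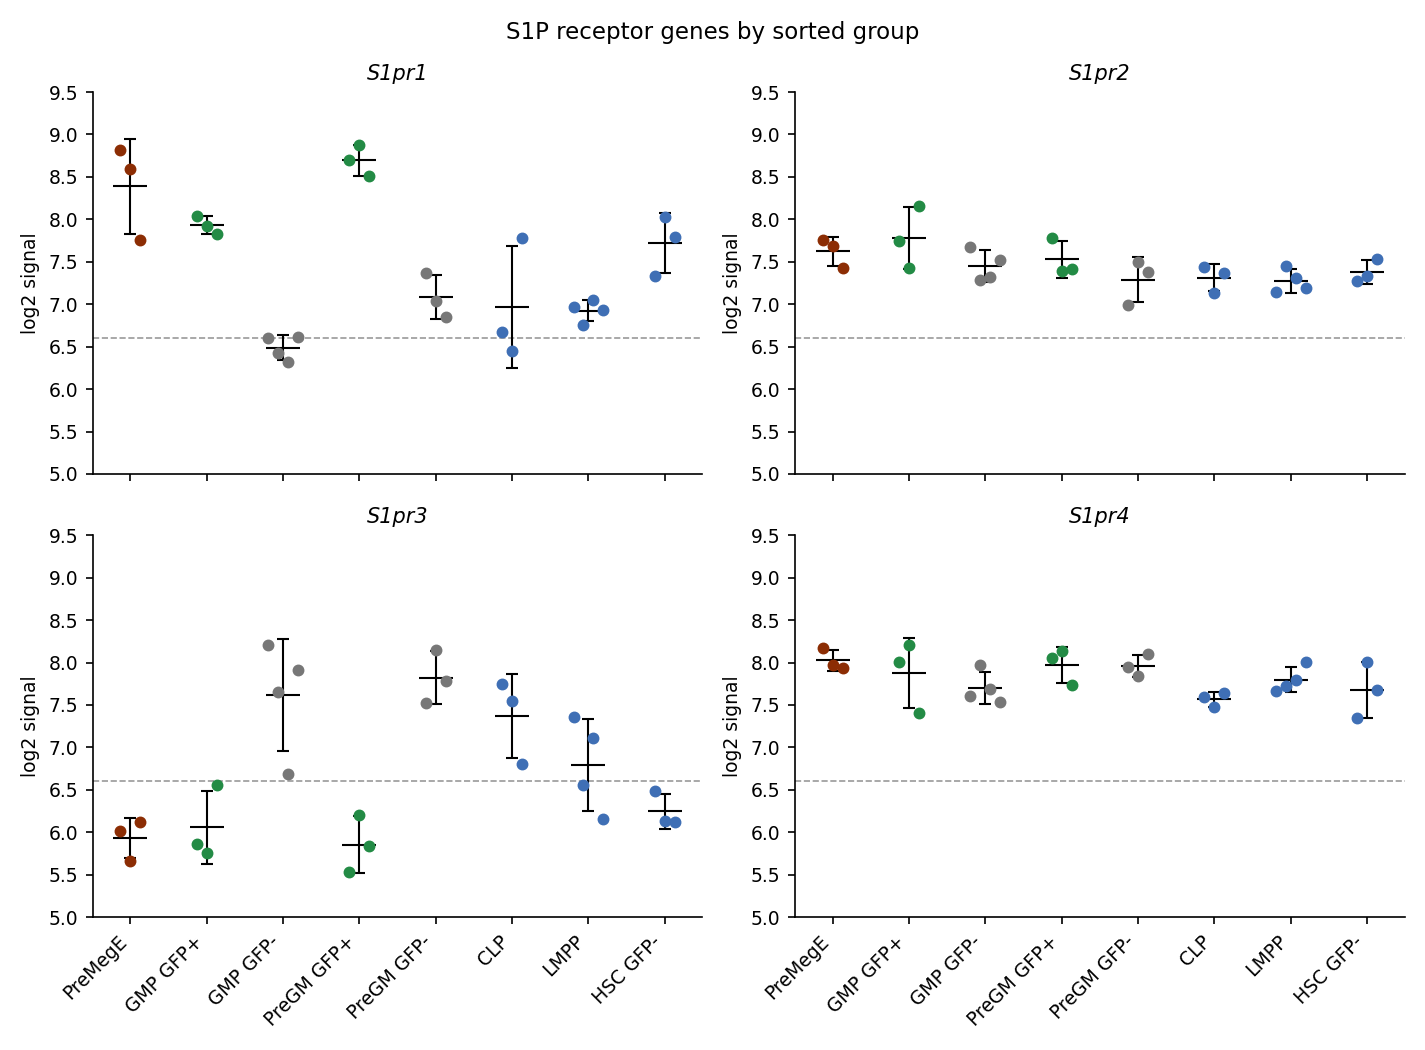
Log2 signal of the receptor genes S1pr1, S1pr2, S1pr3 and S1pr4 in each array (points), with group mean and SD (black bars), for the 8 sorted groups; colours and the dashed median line are as in the plot of the exporter and kinase genes. S1pr1 is higher and S1pr3 lower in each GFP+ group than in its GFP- counterpart, and S1pr2 and S1pr4 vary by at most 0.51 between group means.

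Counted together, 3 of the 9 tested members changed between PreGM GFP+ and PreGM GFP- (1 higher, 2 lower, against 0.908% and 1.14% of all genes). Between GMP GFP+ and GMP GFP- 5 of 10 changed (3 higher, 2 lower, against 3.22% and 4.05%). The 5 include Mfsd2b, which was chosen for its rise in PreGM. The median of the members' differences was 0.11 in PreGM, against 0.04 over all genes, and 0.25 in GMP, against 0.08, while the median size regardless of sign was 0.41 against 0.13 and 0.43 against 0.19. The median array signal of GMP GFP+ exceeded that of GMP GFP- by 0.13, so the GMP differences are also given relative to it: 0.85 for Mfsd2b, 1.32 for S1pr1, -1.68 for S1pr3 and -1.63 for Sgpp1, all still called, and 0.38 for Spns2, no longer called. Only S1pr1 and S1pr3 of the 9 genes tested in both pairs were called in both, in the same direction, and of the 9 members tested none was shown to differ in its reporter difference between GMP and PreGM (0 of 9 called, 1 at an unadjusted p under 0.05, against 0.517% higher and 0.186% lower of all genes).

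**Figure D4:**
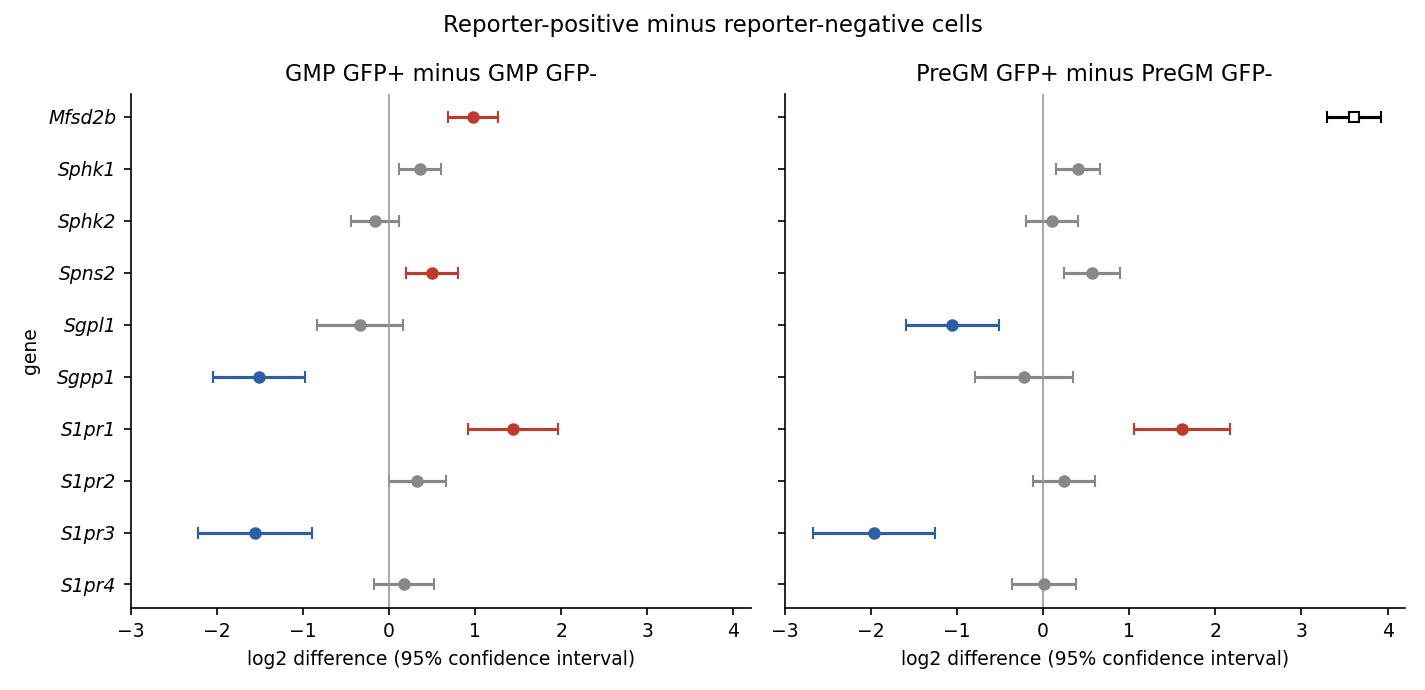
Difference in log2 signal (points) with its 95% confidence interval (bars) for the 10 genes, GFP+ minus GFP-, in GMP (left) and PreGM (right). Red is called higher, blue called lower, grey not called, and the open black square is Mfsd2b in PreGM, which was not tested. The bar of that square does not allow for the choice of the gene by this difference. S1pr1 lies at 1.44 and 1.61, and S1pr3 at -1.56 and -1.97.

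Along the other steps few members moved. Between PreMegE and HSC GFP- Mfsd2b was the 1 of 10 that changed (1 higher, 0 lower, against 0.988% and 2.19% of all genes). Between PreMegE and PreGM GFP+ 0 of 9 were called, none at an unadjusted p under 0.05, in a comparison in which 0.0150% of all genes were higher and 0.0502% lower. Between GMP GFP+ and PreGM GFP+ 0 of 9 were called (0.792% and 0.226% of all genes) and 3 had an unadjusted p under 0.05: Sgpl1 (0.79 higher in GMP GFP+, adjusted p = 0.273), S1pr1 (0.76 lower, 0.361) and Spns2 (0.39 lower, 0.49). Between PreGM GFP- and LMPP 0 of 9 were called, 1 at an unadjusted p under 0.05 (0.396% and 0.476% of all genes), and between LMPP and HSC GFP- 0 of 10, 2 at an unadjusted p under 0.05 (1.03% and 1.28%).

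Of 55 other genes of ceramide and S1P metabolism and S1P receptor signalling, 52 were measured, and 5 changed with the reporter in PreGM (2 higher, 3 lower, against 0.908% and 1.14% of all genes) and 6 in GMP (3 higher, 3 lower, against 3.22% and 4.05%, so that the GMP counts lie near the background). In fits of only the groups compared, or with array weights, these totals were 2 and 3 in PreGM and 12 and 13 in GMP, and with single arrays left out 2 to 4 in PreGM. The median difference of the 52 was -0.04 in PreGM and -0.03 in GMP, against 0.04 and 0.08 over all genes. Ugcg, which makes glucosylceramide from ceramide, rose by 1.93 in PreGM GFP+ (adjusted p = 1.81e-04, limma), to 9.93 ± 0.12 against 8.01 ± 0.62 in PreGM GFP- (SD, n = 3 each). It rose by 1.0 in GMP GFP+ (adjusted p = 0.0219), to 9.08 ± 0.03 (SD, n = 3) against 8.08 ± 0.37 in GMP GFP- (SD, n = 4), and by 2.52 in PreMegE over HSC GFP- (adjusted p = 3.65e-06). The GMP rise of Ugcg was not called after median centring (0.87, adjusted p = 0.066) or without GMP GFP- replicate 1 or any GMP GFP+ array (0.06 to 0.0773).

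The genes of sphingomyelin synthesis split. Sgms1, the Golgi enzyme, rose by 0.94 in PreGM GFP+ (adjusted p = 0.0492, limma) and by 1.18 in GMP GFP+ (adjusted p = 0.00217), while Sgms2, the plasma membrane enzyme, fell by 1.05 (adjusted p = 0.0377) and fell by 2.71 (adjusted p = 1.15e-07). Sgms2 was 6.81 ± 0.53 in GMP GFP+ (SD, n = 3) and 9.52 ± 0.26 in GMP GFP- (SD, n = 4), and its signal was 2.59 higher in GMP GFP- than in PreGM GFP- (adjusted p = 7.98e-07). Its PreGM GFP+ mean, 5.87, lay below the array median and was not shown to exceed background. The PreGM calls of both enzymes were borderline: that of Sgms1 was kept in 4 and that of Sgms2 in 8 of 14 alternatives, and all arrays of both PreGM groups but PreGM GFP- replicate 3 for Sgms1 and PreGM GFP- replicate 1 for Sgms2 ended it when left out (adjusted p between 0.0579 and 0.273). With the replicate number as a block the Sgms1 difference in PreGM had an adjusted p of 0.0606. Sgms1 was highest of all in HSC GFP-, at 9.72, 10.03 and 10.25 in the 3 arrays, and fell by 1.55 in LMPP (adjusted p = 2.68e-04), by a further 1.24 in CLP relative to LMPP (adjusted p = 0.00333, and 0.12 in a fit of only these groups) and by 1.23 in PreMegE relative to HSC GFP- (adjusted p = 0.0041).

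Cd69, whose protein binds S1PR1 and removes it from the cell surface, fell by 2.12 in PreGM GFP+ (adjusted p = 0.00126, limma) and by 1.72 in GMP GFP+ (adjusted p = 0.00264), to means of 5.30 and 6.34 below the array median. It moved opposite to S1pr1 in both pairs, and was 1.40 higher in LMPP than in HSC GFP- (adjusted p = 0.0293), a call lost without LMPP replicate 2, 3 or 4 or HSC GFP- replicate 1 or 2 (adjusted p between 0.0643 and 0.186). The ceramide synthase gene Cers6 fell by 1.10 in PreGM GFP+ (adjusted p = 0.0105) and by 1.13 in GMP GFP+ (adjusted p = 0.00214), and its PreGM call was lost without PreGM GFP- replicate 1 or PreGM GFP+ replicate 1 or 2 (adjusted p between 0.0629 and 0.0793), in a fit of only these groups (0.0561) and with array weights (0.121). Spns3, a relative of Spns2, rose by 0.79 in GMP GFP+ (adjusted p = 0.00966), but not without GMP GFP+ replicate 3 (0.59, adjusted p = 0.0978).

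In PreMegE relative to HSC GFP- 2 of the 52 were higher and 5 lower (against 0.988% and 2.19% of all genes), 4 to 6 in total with single arrays left out. Besides Ugcg and Sgms1, Galc, which removes galactose from galactosylceramide, fell by 1.67 (adjusted p = 8.70e-05, limma), and the acid ceramidase gene Asah1 and the neutral ceramidase gene Asah2, whose products free sphingosine from ceramide, fell by 1.43 and 1.27 (adjusted p = 0.0142 and 0.0159). Cers5 fell by 1.13 (adjusted p = 0.0212) and Spns3, the smallest of the 7 changes and named after its values were seen, rose by 0.78 (adjusted p = 0.0273). The Asah1, Asah2, Cers5 and Spns3 calls were each lost on leaving out some single arrays: PreMegE replicate 1 or 3 or HSC GFP- replicate 3 for Asah1, PreMegE replicate 1 or 3 or HSC GFP- replicate 2 for Asah2, PreMegE replicate 3 or HSC GFP- replicate 1 or 2 for Cers5, and PreMegE or HSC GFP- replicate 1 or 2 for Spns3 (adjusted p between 0.0515 and 0.136). At the remaining steps, 3 were higher in GMP GFP- than in PreGM GFP- (Sgms2, Galc by 1.13, Cers6 by 1.13) and 0 lower, against 0.918% and 0.471% of all genes. In GMP GFP+ 2 were higher than in PreGM GFP+ (Cers6 by 1.09, Cerk by 0.88) and 0 lower, against 0.792% and 0.226%, and Galc fell by 1.16 in PreGM GFP- and fell by 1.18 in CLP, both relative to LMPP. Between PreGM GFP- and LMPP 0 of the 52 were higher and 1 lower (against 0.396% and 0.476% of all genes), between LMPP and HSC GFP- 1 and 1 (1.03% and 1.28%), and between CLP and LMPP 0 and 2 (0.828% and 0.747%). The Cerk call was lost without any one of its arrays (adjusted p between 0.105 and 0.229), the Cers6 call in GMP GFP+ without GMP GFP+ replicate 1 or 3 or PreGM GFP+ replicate 1 or 2 (0.061 to 0.156) and in a fit of only these groups (0.121). The Galc call in PreGM GFP- was lost without PreGM GFP- replicate 3 (adjusted p = 0.0529), in a fit of only these groups (0.108) and with array weights (0.22), and that in CLP without CLP replicate 2 (0.0513) and in a fit of only these groups (0.193). With array weights the Galc and Cers6 calls in GMP GFP- were lost too (0.0804 and 0.078). Galc means in PreMegE (5.87), PreGM GFP- (5.88) and CLP (5.86) lay below the array median. Those signals were not shown to exceed background, which limits each Galc difference given here. Between PreMegE and PreGM GFP+ 0 of the 52 were called (limma, 1 at an unadjusted p under 0.05).

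**Figure D5:**
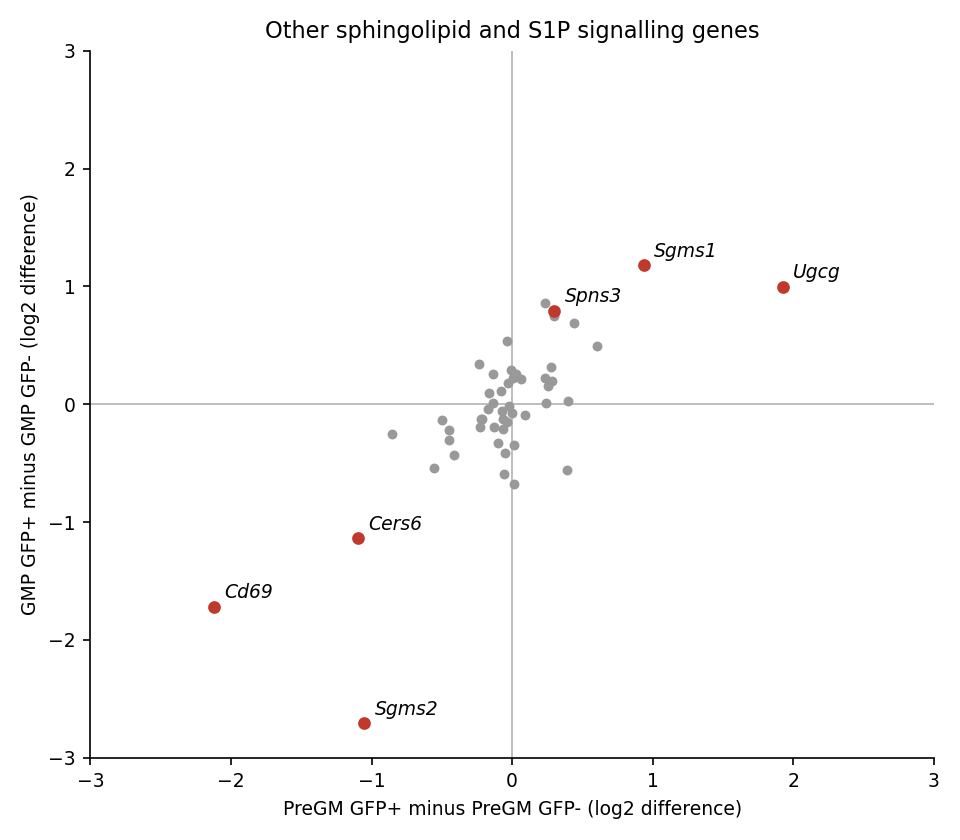
Reporter differences in log2 signal (GFP+ minus GFP-) of the 52 other sphingolipid and S1P signalling genes, in PreGM (horizontal axis) and in GMP (vertical axis). Red labelled points were called in at least 1 of the pairs. Ugcg and Sgms1 lie at the upper right, and Cd69, Sgms2 and Cers6 at the lower left.

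The genes whose signal most resembled that of Mfsd2b over the 26 arrays, by Pearson correlation, were the carboxylesterase gene Ces2g (r = 0.98), the water channel gene Aqp1 (0.97), the lectin gene Zg16 (0.96), the phospholipid transporter gene Abcb4 (0.95), the pseudokinase gene Trib2 (0.93), the thrombin receptor gene F2r (0.93), the aquaporin gene Aqp9 (0.92) and Ermap (0.92), an erythroid membrane protein gene. Over the 8 group means their correlations ran from 0.941 for F2r up to 0.997 for Aqp1. These points share arrays and sorted groups. The PreGM arrays whose difference chose Mfsd2b enter every correlation given here, as do groups sorted by the Gata1 reporter. Correlations with Mfsd2b or Gata1 are therefore partly built in and serve as description. Aqp1 and Ermap are among the erythroid markers used above, and F2r is among the megakaryocyte markers. With Gata1 Mfsd2b had r = 0.89, S1pr1 0.77 and Sphk1 0.74, while Sgpl1 had -0.69 and S1pr3 -0.66. Within the 10 genes Mfsd2b resembled S1pr1 most (0.81) and was opposed most by Sgpl1 (-0.80). The nearest genes of S1pr1 were Gnb4 (0.91), which encodes a G protein beta subunit, Slc41a3 (0.90) and the transferrin receptor gene Tfr2 (0.90). Those of Spns2 were the carbonic anhydrase gene Car2 (0.88), Hemgn (0.86) and Tom1l1 (0.85). S1pr3 was nearest to Ly86 (0.88), one of the monocyte markers, the chemokine receptor gene Ccr2 (0.85) and Ifi209 (0.85). Sgpl1 was nearest to Arid5b (0.89), Rassf2 (0.88) and Ly9 (0.85), and Sgpp1 to Agps (0.82), Copz1 (0.82) and Sec61a1 (0.81).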

How the data were processed

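Each array has 1 deposited log2 signal for every probe set, made by the authors with RMA and oligo per the submitters' processing notes. Versions, steps and the base of the logarithm are not given in the sources used here, and base 2, which RMA uses, was taken from the range of the values. Of 35556 probe sets, 21789 named 1 gene in the annotation used, which GEO gives for the 1.0 ST version, 1621 several and 12146 none; the last 2 kinds were left out. The probe set with the highest mean was kept per symbol, leaving 19938 genes. Cross-hybridisation between paralogs was not tested.

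A model with 1 coefficient per group was fitted to all 26 arrays in limma 3.58.1 (R 4.3.3), and p-values of the moderated statistics were adjusted across all of the genes (Benjamini-Hochberg). Tables were made in Python 3.11.15. The fit was tested on simulated data. The 10 comparisons were the reporter pairs in PreGM and GMP and the difference of those pairs, PreMegE against PreGM GFP+ and HSC GFP-, GMP against PreGM with the reporter off and on, PreGM GFP- and CLP each against LMPP, and LMPP against HSC GFP-. The alternatives were median centring, quantile normalization, the mean of a gene's probe sets, a filter on low signals, a trended robust prior, array weights, only the groups compared, the replicate number as a block, and leaving out each array. Members, gene lists and tests were chosen with earlier results of these data known. Beyond the members, the text names called pathway genes (at most 6 per comparison, by size), S1pr5, Gata1, markers as lists, the 8 genes most correlated with Mfsd2b and the 3 most correlated with each other member whose group means span at least 1, passing over antigen receptor segments, olfactory or vomeronasal receptors, small RNAs and names that are clone or model identifiers. The number of arrays limits the precision.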

Additional observations from a re-analysis of the deposited data

Results flagged for a closer look

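The reporter difference of Sgms2, the plasma membrane sphingomyelin synthase gene, differed between the progenitors. It was -2.71 in GMP and -1.05 in PreGM (GFP+ minus GFP-), a difference of -1.66 (SE 0.36, adjusted p = 0.0282, limma interaction term). It was the 1 gene of the 52 other pathway genes called in this test, in which 0.517% of all genes were higher and 0.186% lower. The mean of PreGM GFP+, 5.87, lay below the median signal of the arrays, so the PreGM difference may be understated. The call held under 13 of 21 alternatives (differences of -1.99 to -1.25) and was lost in a fit of only these groups (adjusted p = 0.172) and without GMP GFP+ replicate 1 or 2, GMP GFP- replicate 1 or 2, PreGM GFP+ replicate 2 or 3 or PreGM GFP- replicate 1 (adjusted p between 0.0598 and 0.104).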

How the results depend on the processing

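Group means of members moved by less than 1 SD in all 500 checks, but most could not have failed. Leaving out 1 of 3 or 4 arrays cannot move a mean by 1 SD, and averaging probe sets leaves genes with 1 probe set unchanged. Only median centring and quantile normalization could have moved a mean so far. Untested differences of Mfsd2b have no threshold and counted as kept when they moved by less than a pooled SD. Of all 592 recomputed member differences 556 kept direction and, where tested, side of the threshold, 30 lost and 4 gained a call and 2 turned sign. The last were uncalled differences of PreMegE minus PreGM GFP+ without PreMegE replicate 3: Sgpp1 -0.039 (0.31 with all arrays, -0.039 to 0.64 over single arrays left out) and S1pr1 0.011 (-0.31, and -0.52 to 0.011). In the reporter pairs and in PreMegE minus HSC GFP- no alternative moved the count of member calls by over 1.5 times. In GMP GFP- minus PreGM GFP- the 1 member call became 0 under median centring, quantile normalization, the replicate block, only the groups compared and array weights, and was 0 to 1 with an array left out; in CLP minus LMPP it became 0 under the block and with only the groups compared, and 0 to 1 with an array left out; in LMPP minus HSC GFP- array weights gave 1 instead of 0. Counts of other pathway genes called, with only the groups compared and with array weights, were 2 and 3 instead of 5 in the PreGM pair, 12 and 13 instead of 6 in the GMP pair, and 0 and 0 instead of 1 in PreGM GFP- minus LMPP, where quantile normalization gave 2. Only the groups compared gave 0 instead of 2 in CLP minus LMPP and 0 instead of 1 for the difference between reporter differences. Array weights gave 1 instead of 3 in GMP GFP- minus PreGM GFP- and 4 instead of 2 in GMP GFP+ minus PreGM GFP+, where median centring gave 1. With 1 array left out these counts ran from 2 to 4 (PreGM pair), 4 to 6 (PreMegE minus HSC GFP-, 7 in full), 0 to 2 (GMP GFP+ minus PreGM GFP+), 0 to 2 (PreGM GFP- minus LMPP), 1 to 3 (LMPP minus HSC GFP-, 2 in full), 1 to 3 (CLP minus LMPP) and 0 to 1 (difference between reporter differences). The cause of these shifts was not tested. It is not settled whether equal replicate numbers share mice. Correlations of same-numbered arrays' deviations ran from -0.26 to 0.33, and no comparison had all above 0.1, though PreGM GFP- minus LMPP came close (0.224, 0.325 and 0.0996). The Y-linked gene Eif2s3y was highest in replicate 3 and lowest in replicate 2 among replicates 1 to 3 in 6 of 8 groups, with another shared order in HSC GFP- and PreMegE. Apart from the 2 member calls above and those of Sgms1 in the PreGM pair, the block ended no call of a named gene. Signals near the array median, as for Sphk1, S1pr5 and S1pr3 in GFP+ cells, limit what differences there show.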
